A study of Mus musculus with 6 samples.

Results

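Meis2 neurons are a subtype of excitatory neuron of the mouse lumbar spinal cord, named in the deposited annotation for the transcription factor gene Meis2. They were taken as the nuclei annotated as neurons of the subtype Meis2, which gave 104 nuclei of 6035 neurons and of 18514 nuclei in all. All samples were of wild-type C57BL/6 mice paralysed in both legs after a severe thoracic contusion. The 3 TESS samples were from mice placed for 30 min on a treadmill while TESS, targeted epidural electrical stimulation applied over the cord, was switched on together with agonists for 5-HT1a (a serotonin receptor) and D1 (a dopamine receptor). The 3 CON samples, labelled paralyzed, were from injured mice that spent the same time on the treadmill with no stimulation, and the labels leave unclear whether these mice were given the agonists. The contusion is shared by both groups, so no uninjured cord stands behind any comparison. Nuclear RNA was counted as UMIs (unique molecular identifiers, 1 per captured RNA molecule) with 10x version 2 chemistry, with 5000 nuclei loaded per library. The tissue label is lumbar cord (the protocol for extraction speaks of the thoracic lesion), and nothing states that each sample was a separate animal.

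Meis2 encodes a homeodomain protein of the TALE class, whose members bind DNA in complexes with partners of the same class such as the Pbx proteins. Excitatory spinal interneurons release glutamate, which the vesicular transporter encoded by Slc17a6 loads into vesicles. Many of them, above all in the dorsal horn, also make neuropeptides, and the peptides and receptors a cell expresses are commonly used to tell such neurons apart.

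The nuclei were few and unevenly spread. TESS 1, TESS 2 and TESS 3 held 5, 20 and 9 Meis2 nuclei, and CON 1, CON 2 and CON 3 held 19, 17 and 34. Their UMIs summed to 13780, 21827 and 9378 in the TESS samples, against 30562, 38072 and 49737 in the CON samples, so that 1 UMI was worth between 45.8 and 107 CPM (UMIs of a gene scaled to 1000000 UMIs of the class) in TESS and between 20.1 and 32.7 CPM in CON. The median depth per nucleus was 2226, 979 and 1103 UMIs in TESS 1, 2 and 3, against 1482, 2145 and 1353.5 UMIs in CON 1, 2 and 3. The metadata put TESS 1, CON 1 and CON 2 in batch 3, TESS 2 in batch 2, TESS 3 in batch 1 and CON 3 in batch 4, so only batch 3 held both groups. Of the cell barcodes, 205 occurred in more than 1 library, and 1 Meis2 nucleus carried such a barcode. CON 3 stood apart within the subtype, since a Meis2 UMI was found in 11 of its 34 nuclei, or 32.4% (95% exact binomial interval 17.4% to 50.5%), against 55.6% to 82.4% of the nuclei in the other samples. Results that rest on CON 3 are given with and without it.

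Both genes behind the name were found. The summed level of Meis2 was 777 CPM in Meis2 neurons, against 122 CPM in the other excitatory neurons (3348 nuclei of 20 subtypes). Meis2 reached 508, 1420 and 853 CPM in Meis2 neurons of TESS 1, 2 and 3, against 982, 788 and 422 CPM in those of CON 1, 2 and 3. Every sample lay above the other excitatory neurons of the same sample, which ranged from 123.5 to 188 CPM in TESS and from 90.8 to 112 CPM in CON. Among the 38 neuron subtypes the level ranked 2, below the subtype CSF-N at 2792 CPM and above Maf/Clbn2 at 347 CPM. CSF-N had a Pkd2l1 level of 2222 CPM, a channel gene that marks neurons contacting the cerebrospinal fluid, and no Pkd2l1 UMI was found in Meis2 neurons, which allows up to 3 UMIs of 163356. The range of Meis2 neurons over samples, 422 to 1420 CPM, overlapped that of Maf/Clbn2, 205 to 636 CPM. The clusters were made from these same counts, so levels in the subtype against other neurons are descriptions and carry no test.

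**Figure D1:**
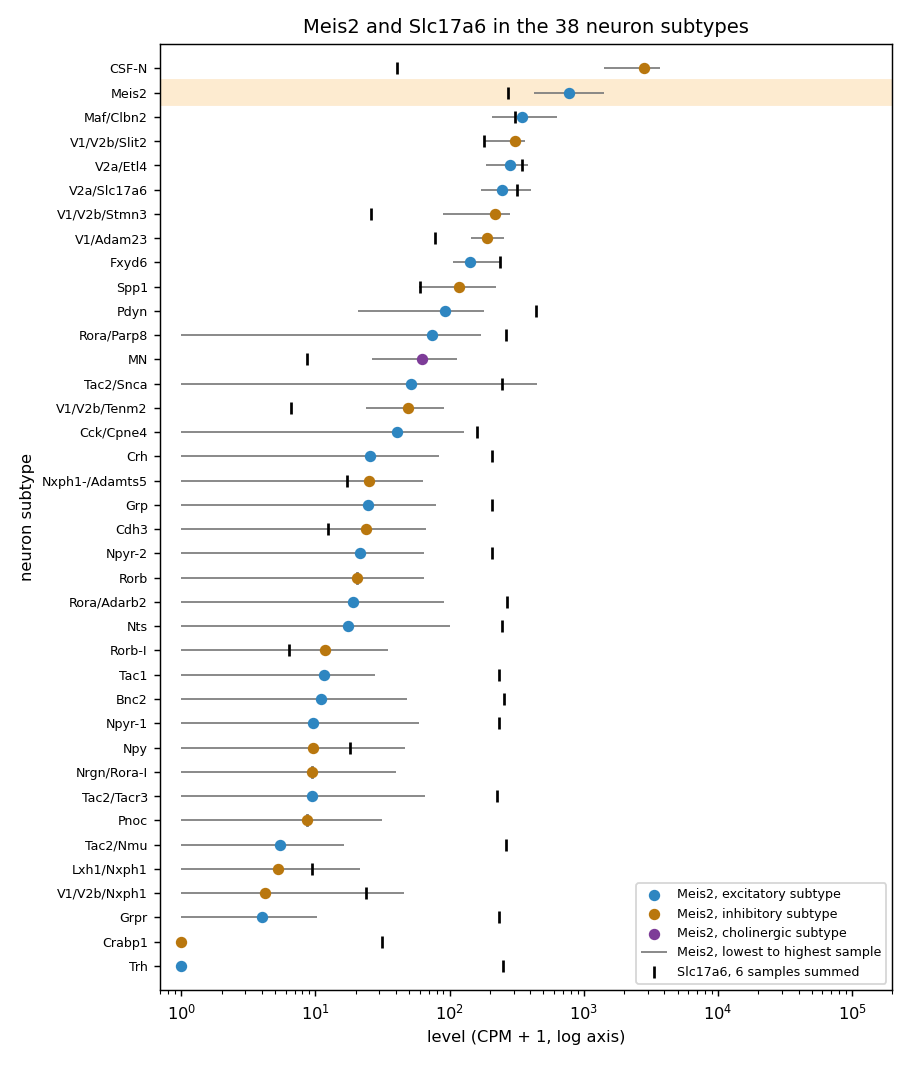
Levels of Meis2 (points, coloured by kind of subtype, with a grey line over the lowest to highest sample) and of Slc17a6 (black ticks) in the 38 neuron subtypes, in CPM + 1 on a log axis. Meis2 neurons, in the shaded row, have a Meis2 level of 777 CPM, below CSF-N at 2792 CPM, and a Slc17a6 level of 269 CPM.

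Slc17a6 was found at 269 CPM in Meis2 neurons, against 275 CPM in the other excitatory neurons. By sample it was 290, 321 and 213 CPM in Meis2 neurons of TESS 1, 2 and 3, against 229, 236 and 302 CPM in those of CON 1, 2 and 3. The 2 groups of samples overlap, and the level of the subtype sits within that of excitatory neurons in general. A Slc17a6 UMI was detected in 36 of the 104 nuclei (34.6%), against 33.8% of the other excitatory nuclei and 1.06% of the oligodendrocyte nuclei, which should lack the gene. Their median depths were 1441.5, 1537 and 433 UMIs. A Meis2 UMI was detected in 61 nuclei (58.7%, 95% exact binomial interval 48.6% to 68.2%), against 12.5% of the other excitatory nuclei and 2.92% of the oligodendrocyte nuclei. With each nucleus thinned to 500 UMIs, which left out 1, 91 and 5671 shallower nuclei, these shares were 30.5%, 4.11% and 1.88%. The intervals cover counting error only.

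Genes of inhibitory transmission were low. Slc32a1, the vesicular transporter for GABA and glycine, had 8 UMIs (49.0 CPM), against 31.1 CPM in the other excitatory neurons and 544 CPM in the inhibitory subtype Spp1. Gad1 and Gad2, which make GABA, had 2 and 3 UMIs, Slc6a5, the glycine transporter, had 2, and Pax2, a factor of the dorsal inhibitory lineage, had 0. In all, 11 of the 104 nuclei (10.6%) held a UMI of Slc32a1, Gad1, Gad2 or Slc6a5. No doublet caller was run.

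Of 19 transcription factor genes of ventral and motor lineages in the table, 17 had 0 UMIs in Meis2 neurons, among them the V1 factor En1, the V2b factors Gata2 and Gata3, the V3 factor Sim1 and the motor factor Mnx1. Foxp1 and Foxp2, which several neuron classes use, had 10 and 4 UMIs. Only these 2 of the 19 reached 20 CPM in either class, so the zeros cannot be compared at this depth. Summed over the list, the level was 85.7 CPM in Meis2 neurons, against 115 CPM in the other excitatory neurons. Of 38 transcription factor genes of dorsal horn neurons in the table, 25 had a UMI in Meis2 neurons and 13 had 0, among them Bhlhe22, Lhx2 and Lhx9. Some markers of dorsal excitatory neurons were present at low counts: Lmx1b had 16 UMIs (97.9 CPM, against 78.5 CPM in the other excitatory neurons), Tlx3 had 5 and Prrxl1 had 3. Lbx1, which is needed in development for dorsal horn cell fate, had 0 UMIs in Meis2 neurons and 3.94 CPM in the other excitatory neurons, so its level cannot be compared at this depth.

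Pbx3, a TALE-class partner of the Meis proteins, had the highest level of the 38 subtypes in Meis2 neurons. It stood at 1234, 596 and 640 CPM in TESS 1, 2 and 3, and at 785, 735 and 704 CPM in CON 1, 2 and 3. Its level lay between 235 and 305 CPM in the other excitatory neurons, below every value of Meis2 neurons. Pbx3 is among the defining genes given next, which were chosen for being higher in every sample. Of 11 TALE genes in the table, 8 were measured at 20 CPM or more in either class, and 7 of these 8 were higher in Meis2 neurons. Only Meis2 and Pbx3 differed by more than 2-fold upward on the log2(CPM + 10) scale, and 1 gene differed by more than 2-fold downward. Over all 8108 genes at that level, 2.91% were more than 2-fold higher in Meis2 neurons and 5.93% more than 2-fold lower.

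The genes that set the subtype apart in every sample were chosen as the 20 of at least 50 CPM whose lowest log2 ratio over the 6 samples was largest. They spanned receptors, channels, peptides and adhesion molecules. Plch1, a phospholipase C that releases calcium-mobilizing second messengers, led them with 226 CPM in Meis2 neurons, against 15.6 CPM in the other excitatory neurons. It was followed by Col14a1, a fibril-associated collagen, at 91.8 CPM against 4.28 CPM, which rests on 15 UMIs, and by Meis2 itself. The 20 genes end with Cdh12, a cadherin, whose lowest log2 ratio was 0.77, and the next gene outside was Ankfn1 at 0.76.

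Among receptors, Htr2c, the serotonin 5-HT2C receptor, was at 1114 CPM in Meis2 neurons, against 399 CPM in the other excitatory neurons, and no other excitatory subtype had a higher level. A Htr2c UMI was found in 67 nuclei (64.4%), against 25.96% of the other excitatory nuclei and 2.49% of the oligodendrocyte nuclei, and in 37.1%, 11.6% and 2.18% after thinning. Chrm3, the muscarinic M3 acetylcholine receptor, was at 918 CPM in Meis2 neurons, against 273 CPM. Grik3, a kainate-type glutamate receptor subunit, was at 214 CPM in Meis2 neurons, against 30.5 CPM. Each of these 3 receptors was higher in all 6 samples, which follows from the way the defining genes were chosen. Of the 2 receptors that the agonists target, Htr1a had 0 UMIs in Meis2 neurons and Drd1 had 2, in CON 1 and CON 3, and both were scarce in the other excitatory neurons too, at 3.76 and 4.79 CPM. Adra2c, an alpha-2 adrenergic receptor, had its highest level of all subtypes in Meis2 neurons, but this rests on 5 UMIs.

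Kcnb2, a delayed rectifier potassium channel, was at 1659 CPM in Meis2 neurons, against 612 CPM in the other excitatory neurons. Kcnmb2, an auxiliary subunit of calcium-activated potassium channels, was at 496 CPM, against 98.2 CPM, and Kcnk2, a leak potassium channel, was at 257 CPM, against 75.8 CPM. Kcnd3, an A-type potassium channel, went the other way, with 85.7 CPM in Meis2 neurons and 279 CPM in the other excitatory neurons, and was lower in all 6 samples. Of 38 channel genes at 20 CPM or more, 18 were higher and 20 lower in Meis2 neurons, and 2 and 6 of them by more than 2-fold. Gabra3, a GABA-A receptor subunit, was at 306 CPM, against 181 CPM, and no other neuron subtype had more.

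**Figure D2:**
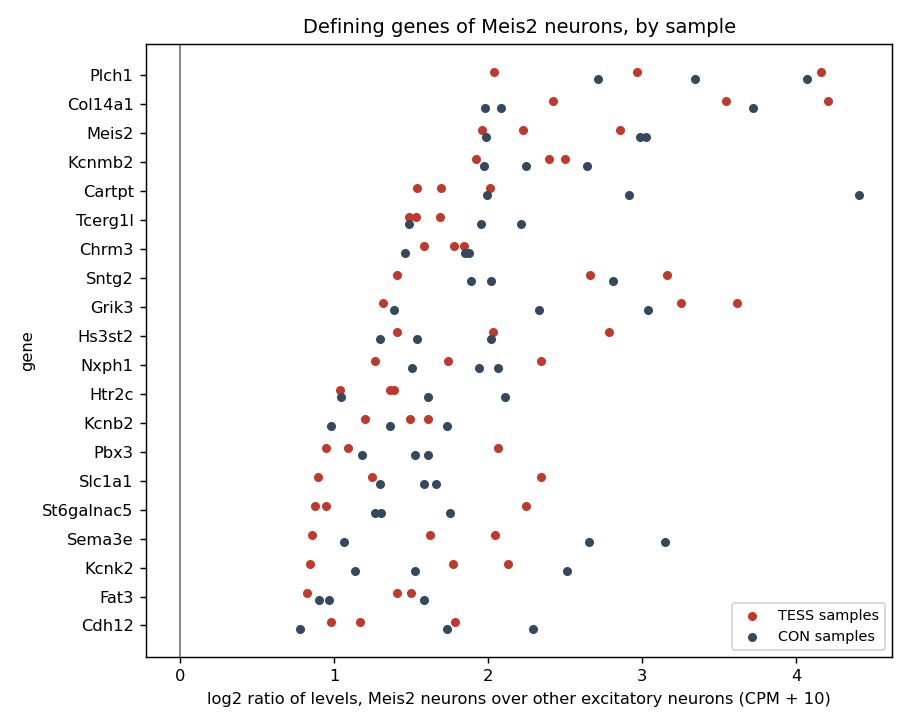
Log2 ratio of the level in Meis2 neurons over that in the other excitatory neurons of the same sample (CPM + 10) for the 20 defining genes, 1 point a sample, TESS in red and CON in dark blue. The genes are ordered by their lowest ratio, which runs from 2.04 for Plch1 down to 0.77 for Cdh12, and all 6 points of each lie right of 0 because the genes were chosen for it.

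Adhesion and guidance genes were mixed as well, with 22 of 52 higher and 30 lower. Nxph1, a secreted neurexin ligand, was at 943 CPM in Meis2 neurons, against 259 CPM in the other excitatory neurons. Sema3e, a secreted guidance molecule, was at 220 CPM, against 40.4 CPM. Pcdh15, a protocadherin, and Unc5d, a netrin receptor, were low at 477 and 190 CPM in Meis2 neurons, against 1711 and 785 CPM in the other excitatory neurons, in all 6 samples. The long gene Pcdh15 overlaps the counted gene Gm15398, so reads of the 2 may be split, and Gm15398 was also low, at 67.3 CPM, against 311 CPM.

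Several transcription factors common in other excitatory subtypes were low, as they also were in the most similar subtypes named below. Ebf1, of the Collier/Olf/EBF family, was at 1041 CPM in Meis2 neurons, against 2903 CPM in the other excitatory neurons, and its relative Ebf2 at 61.2 CPM, against 619 CPM. Sox5 had 4 UMIs, all in CON 3, against 335 CPM in the other excitatory neurons, and Bnc2 had 0 UMIs, against 86.8 CPM. Bnc2 is confined to some subtypes, since Meis2 neurons with 0 UMIs still ranked 10 of 21 excitatory subtypes. Its highest level was 1280 CPM, in Grp. Bcl11a, a zinc-finger factor, went the other way, with 257 CPM in Meis2 neurons and 94.8 CPM in the other excitatory neurons, and was higher in all 6 samples. Of 23 dorsal factor genes at 20 CPM or more, 7 were higher and 16 lower, and 2 and 10 by more than 2-fold.

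The 3 subtypes with the most similar profiles were Fxyd6 (Pearson r = 0.897 over 7301 genes), V2a/Slc17a6 (r = 0.894) and Pdyn (r = 0.868), and the least similar was Npyr-2 (r = 0.660). Genes are not independent and the subtypes share libraries, so these values rank likeness only. Each of the 3 differed from Meis2 neurons in some of the genes above. Meis2 was at 777 CPM in Meis2 neurons, against 141 CPM in Fxyd6, 244 CPM in V2a/Slc17a6 and 91.7 CPM in Pdyn. Plch1 was at 226 CPM in Meis2 neurons, against 17.6 CPM in Fxyd6, 21.2 CPM in V2a/Slc17a6 and 23.8 CPM in Pdyn. Pdyn neurons shared the high Pbx3, with 727 CPM, close to the 753 CPM of Meis2 neurons. For Kcnmb2 they reached 408 CPM, above the 368 CPM of Meis2 neurons in CON 2, and Fxyd6 had 271 CPM. In turn, Fxyd6 shared Cartpt, with 291 CPM, close to 331 CPM. V2a/Slc17a6 neurons came closest in Htr2c, at 1018 CPM. The low Ebf1 was shared by Fxyd6 (697 CPM), V2a/Slc17a6 (497 CPM) and Pdyn (972 CPM), each below the 1041 CPM of Meis2 neurons. Ebf2 was at 71.8, 29.2 and 54.4 CPM in the same subtypes, in that order. Sox5 was at 32.5, 76.9 and 23.8 CPM, and Bnc2 at 9.49, 17.2 and 3.40 CPM. Meis2 neurons had 61.2 CPM of Ebf2, 24.5 CPM of Sox5 and 0 CPM of Bnc2.

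Peptide genes were split into a few that were high and a majority that were low. Of 28 peptide genes, 20 had a UMI in Meis2 neurons, and of the 19 at 20 CPM or more in either class, 5 were higher and 14 lower than in the other excitatory neurons. Cck, the precursor of cholecystokinin, was at 1732 CPM over all samples, against 554 CPM, the third level of all subtypes after Trh (5851 CPM) and Cck/Cpne4 (4852 CPM). In TESS alone the mean of Meis2 neurons, 749 CPM, was below those of Maf/Clbn2 (1209 CPM) and Rora/Parp8 (1206 CPM), while in CON alone it was above both, at 2014 CPM, against 1930 and 1634 CPM. Gal, the precursor of galanin, was at 361 CPM over all samples, against 34.6 CPM, the second level of all subtypes after the inhibitory subtype Pnoc (3395 CPM). It was higher in 5 of 6 samples and not in CON 3, where it was at 60.3 CPM, against 63.9 CPM in the other excitatory neurons, and the CON mean of Meis2 neurons, 263 CPM, was below that of Trh, 299 CPM. Cartpt, the precursor of the CART peptide, was at 331 CPM, against 46.2 CPM, and ranked 3 of all subtypes. Peptides typical of other excitatory subtypes were low: Sst (somatostatin) stood at 441 CPM, against 1840 CPM, Tac2 (neurokinin B) at 171 CPM, against 847 CPM, Nts (neurotensin) at 24.5 CPM, against 316 CPM, and Nmu (neuromedin U) at 18.4 CPM, against 148 CPM. Low Nts and Nmu are not particular to the subtype, which ranked 12 and 6 of 21 excitatory subtypes for them. In Fxyd6, V2a/Slc17a6 and Pdyn, Nts was at 35.2, 17.2 and 27.2 CPM and Nmu at 17.6, 3.98 and 3.40 CPM. The highest levels were 6554 CPM of Nts in the subtype Nts and 2676 CPM of Nmu in Tac2/Nmu. Calca, a precursor of calcitonin gene-related peptide, had 0 UMIs. Of the 61 nuclei with a Cck UMI, 21 also held a Gal UMI and 20 a Cartpt UMI, and 44 held a Meis2 UMI. Counts were uneven over nuclei for the rarer peptides, since 5 nuclei held 27 of the 28 Tac2 UMIs and 36 of the 72 Sst UMIs, but 70 of the 283 Cck UMIs.

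The subtype was not uniform in these peptides. When the nuclei were split by whether a Meis2 UMI was found, a split chosen after the data were seen, Cartpt had 53 UMIs (503 CPM) in the 61 nuclei with one and 1 UMI (17.3 CPM) in the 43 nuclei without. Gal had 53 UMIs (503 CPM) in nuclei with a Meis2 UMI, against 6 (103.5 CPM). Sst, Tac2 and Penk (enkephalin) ran the other way, with 23, 1 and 5 UMIs in nuclei with a Meis2 UMI, against 49, 27 and 17 in nuclei without. Cck was present on both sides, at 1869 CPM in nuclei with a Meis2 UMI and 1484 CPM in those without. Other defining genes followed Meis2 in part. Sntg2, a syntrophin, had 18 UMIs (171 CPM) in nuclei with a Meis2 UMI, against 0. Sema3e was at 313 CPM, against 51.8 CPM (33 and 3 UMIs), and Pbx3 at 939 CPM, against 414 CPM (99 and 24 UMIs). Chrm3 was at 977 CPM in nuclei with a Meis2 UMI and 811 CPM in those without. Slc17a6 had 35 UMIs against 9, and Slc32a1 had 2 against 6.

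The nuclei with a Meis2 UMI were the deeper ones, with a median of 1482 UMIs, against 1271 UMIs in nuclei without. The same held within 5 of the 6 samples, as in TESS 3 (1318 UMIs, against 682) and CON 2 (2250 UMIs, against 1749), but not in CON 3 (1299 UMIs, against 1374). Of the 43 nuclei without, 23 came from CON 3. Without CON 3, the 50 nuclei with a Meis2 UMI held 43 Cartpt UMIs and 1 Tac2 UMI, against 0 Cartpt UMIs and 12 Tac2 UMIs in the 20 nuclei without. Within CON 3, the 11 nuclei with a Meis2 UMI held 10 Cartpt UMIs and 0 Tac2 UMIs, against 1 Cartpt UMI and 15 Tac2 UMIs in the 23 nuclei without. For Cartpt the direction was the same in each of the 6 samples. The other peptides were less even. All 12 Tac2 UMIs outside CON 3 in nuclei without a Meis2 UMI came from CON 1. In TESS 2, Sst ran the other way, with 11 UMIs in nuclei with a Meis2 UMI, against 0, as did Gal, at 434 CPM, against 702 CPM. Whether nuclei without a Meis2 UMI belong to another subtype was not tested.

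**Figure D3:**
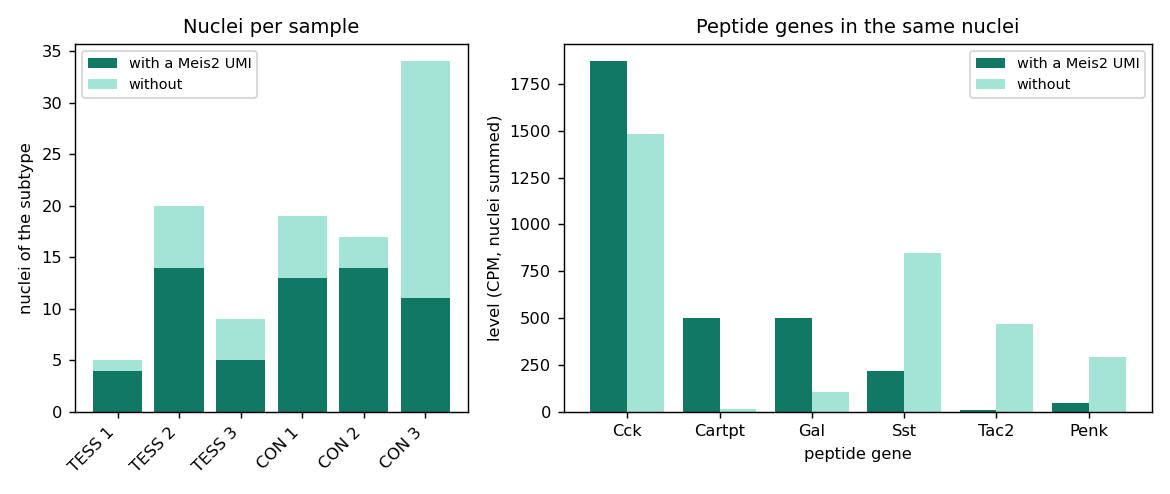
Left, Meis2 nuclei per sample, TESS samples before CON samples, with the nuclei that hold a Meis2 UMI in dark green and those that hold none in light green. Right, summed CPM of 6 peptide genes in the same 2 sets of nuclei, where Cartpt and Gal are higher with a Meis2 UMI (both 503 CPM) and Sst, Tac2 and Penk are higher without one.

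The share of Meis2 nuclei among neurons was lower on average in TESS but did not pass the test. It was 0.680% of neurons in TESS 1 (95% exact binomial interval 0.221% to 1.58%), 1.87% in TESS 2 (1.14% to 2.87%) and 1.28% in TESS 3 (0.587% to 2.42%). In the CON samples it was 1.59% in CON 1 (0.961% to 2.47%), 1.55% in CON 2 (0.908% to 2.48%) and 2.75% in CON 3 (1.91% to 3.82%). The groups overlapped. The mean was 1.28% ± 0.593 in TESS and 1.96% ± 0.679 in CON (SD, n = 3 each), a difference of -0.69 percentage points with a two-sided exact permutation p of 0.4, where 3 samples against 3 cannot give less than 0.1. The difference was -0.30 points without CON 3 and -0.89 points inside batch 3, where TESS had 1 sample and no test was run. Fewer such neurons and fewer nuclei assigned to the cluster cannot be told apart.

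For gene changes, UMIs were summed per sample over the Meis2 nuclei and 410 genes passed the filter on low counts. The question was which transcripts differed after 30 min of stimulated stepping. At these counts the typical standard error of a log2 change was 0.37 (median over the 410 genes), so only large changes of well-detected genes could be called. One gene was called at an adjusted p under 0.05 (edgeR quasi-likelihood test, Benjamini-Hochberg over 410 genes), which is 0.244% of those tested. The groups did not overlap for 63 genes, or 15.4%, of which 42 (10.2%) were higher in TESS and 21 (5.12%) lower.

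That gene was Cck, which fell. Its level in Meis2 neurons was 798, 916 and 533 CPM in TESS 1, 2 and 3 (11, 20 and 5 UMIs), against 1767, 1681 and 2594 CPM in CON 1, 2 and 3 (54, 64 and 129 UMIs). All TESS samples lay below all CON samples. The mean was 749 ± 196 CPM in TESS and 2014 ± 504 CPM in CON (SD, n = 3 each), and the log2 change of TESS over CON was -1.43 ± 0.29 (SE), with an edgeR adjusted p of 0.0190. Leaving out any of 4 samples ended the call while the direction stayed, with a log2 change of -1.63 (adjusted p = 0.0758) without TESS 2, -1.30 (0.0980) without TESS 3, -1.53 (0.0872) without CON 1 and -1.22 (0.107) without CON 3. Inside batch 3 the change was -1.21 (adjusted p = 0.553), with TESS 1 alone set against CON 1 and CON 2 and assumed to vary as they do. A batch term (-1.19, adjusted p = 0.485) and DESeq2 (-1.46, adjusted p = 0.104) also ended the call.

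A Cck UMI was found in 3 of 5, 9 of 20 and 3 of 9 nuclei of TESS 1, 2 and 3, against 15 of 19, 10 of 17 and 21 of 34 nuclei of CON 1, 2 and 3. Thinned to 500 UMIs per nucleus, the share was 27.7% in TESS and 48.8% in CON over all nuclei of each group. By sample the thinned shares were 30.8%, 31.5% and 17.6% in TESS 1, 2 and 3, against 49.0%, 42.4% and 51.9% in CON 1, 2 and 3. The unthinned shares of TESS and CON overlap (60% in TESS 1, against 58.8% in CON 2), and the thinned ones do not. The share in oligodendrocytes, over all samples, was 1.07% after thinning. Oligodendrocyte levels of Cck, a measure of free RNA, were 15.5, 6.49 and 35.3 CPM in TESS 1, 2 and 3, against 29.8, 23.8 and 39.3 CPM in CON 1, 2 and 3, and the 2 ranges overlap. The nuclei with a Meis2 UMI alone gave a log2 change of -1.46 (adjusted p = 0.108), an alternative added after the data were seen.

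Cck was lower in TESS in other excitatory neurons too. The other excitatory neurons held 441, 244 and 546 CPM in TESS 1, 2 and 3, against 627, 573 and 767 CPM in CON 1, 2 and 3, with a log2 change of -0.73 ± 0.17 (edgeR adjusted p = 0.0268). The test of the difference between the 2 classes gave -0.53 ± 0.31 (log2, Meis2 minus other excitatory; adjusted p = 0.938), so a larger fall in Meis2 neurons was not shown. In the 2 subtypes with more Cck, means were 3406 CPM in TESS and 5334 CPM in CON for Cck/Cpne4, whose samples did not overlap, and 5522 CPM in TESS and 6074 CPM in CON for Trh, whose samples did.

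Cck lies at chr9:121489824-121495694 on the minus strand of GRCm38 (GENCODE), and no other annotated gene overlaps it. Because it was the one gene called, the 250 bases before its annotated start are shown, at chr9:121495695-121495944 on the minus strand (RefSeq, GRCm38.p6), with the half-site TGACG of the cAMP response element in capitals. That element is bound by factors such as CREB, which activity in neurons can switch on. The half-site was searched on both strands and appears once, as CGTCA on the strand shown.
Cck promoter: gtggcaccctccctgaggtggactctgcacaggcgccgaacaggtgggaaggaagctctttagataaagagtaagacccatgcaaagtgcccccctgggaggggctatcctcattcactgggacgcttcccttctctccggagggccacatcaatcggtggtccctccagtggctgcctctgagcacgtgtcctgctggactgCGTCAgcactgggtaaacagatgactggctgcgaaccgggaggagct
The match begins 47 bases before the start. The half-site occurs in 17.8% of the 32851 promoter windows of the same length, and in 0 copies in that of Gal. A match describes the letters and shows no binding.

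**Figure D4:**
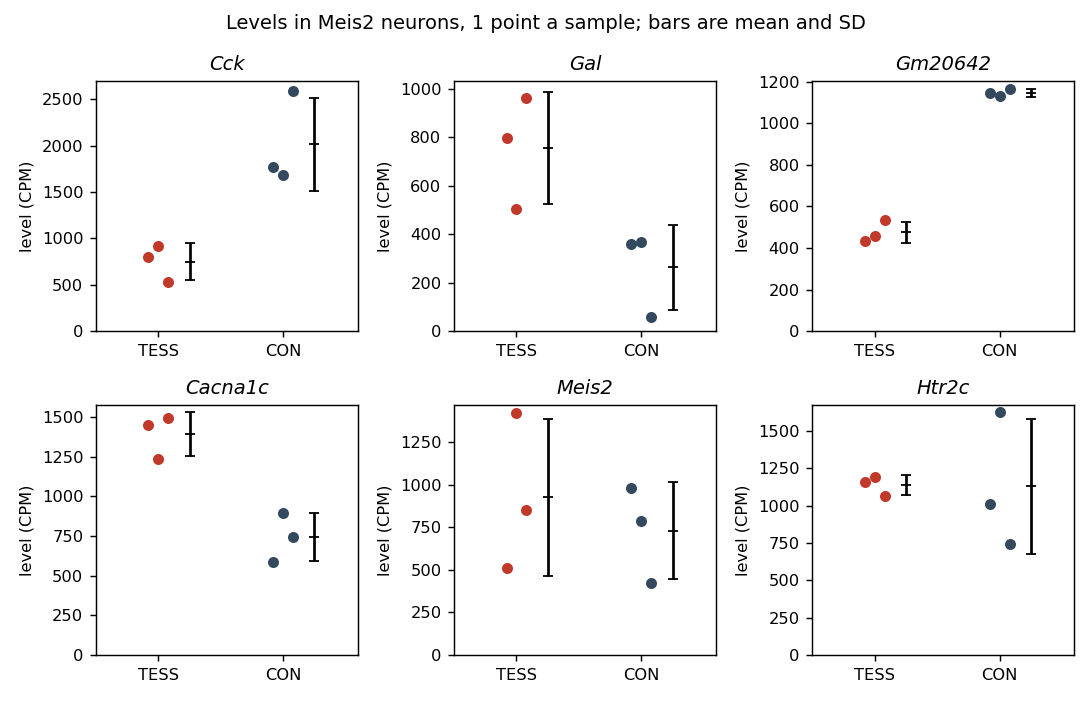
Levels in Meis2 neurons (CPM, linear axes from 0) of 6 genes in TESS (red) and CON (dark blue), 1 point a sample, with the mean and SD of 3 samples beside them. Cck is lower in all TESS samples (749 CPM on average, against 2014 CPM in CON), and Meis2 and Htr2c overlap between the groups.

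No gene was called higher in TESS (0 of 410, with 16 higher at an unadjusted edgeR p under 0.05). Gal came among the 5 with the smallest p. It stood at 798, 504 and 960 CPM in TESS 1, 2 and 3 (11, 11 and 9 UMIs), against 360, 368 and 60.3 CPM in CON 1, 2 and 3 (11, 14 and 3 UMIs). The groups do not overlap, and the log2 change was 1.46 ± 0.50 (adjusted p = 0.383). Gal passed the filter on low counts only through the TESS samples, where it is high. The filter therefore favoured both the lack of overlap and its place among the smallest p. Without CON 3, where 23 of 34 nuclei lacked a Meis2 UMI and held 0 Gal UMIs, the change was 0.84 (adjusted p = 0.688). In the Pnoc subtype, which has most Gal, the mean was lower in TESS, at 2490 CPM, against 3864 CPM in CON, and the samples did not overlap.

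The other 4 were Zfp804a, a zinc-finger gene, with a log2 change of 1.15 ± 0.34 (adjusted p = 0.321), Ptprt, a receptor-type tyrosine phosphatase, with 1.11 ± 0.37, Rab3c, a small GTPase of synaptic vesicles, with 1.03 ± 0.35, and Cacna1c, the pore of an L-type calcium channel, with 0.80 ± 0.28 (adjusted p = 0.383 for each of the last 3). Cacna1c stood at 1451, 1237 and 1493 CPM in TESS 1, 2 and 3, against 589, 893 and 744 CPM in CON 1, 2 and 3, and the groups did not overlap. Its genomic interval overlaps that of the counted gene Dcp1b. None of these 4 passed the test.

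Among the genes with negative changes, Gm20642 came closest to being called after Cck. Its level was 435, 458 and 533 CPM in TESS 1, 2 and 3, against 1145, 1129 and 1166 CPM in CON 1, 2 and 3, with a log2 change of -1.35 ± 0.32 (adjusted p = 0.0515). The CON values were nearly the same in all 3 samples and the TESS values lay well below them. They rest on 35, 43 and 58 UMIs in CON 1, 2 and 3 and on 6, 10 and 5 UMIs in TESS 1, 2 and 3. At such counts the closeness of the CON values is no measure of precision. Gm20642 is annotated antisense to Nrg3 at chr14:39220071-39250430 (GRCm38), and since the strand used in counting is not known, its reads and those of Nrg3 cannot be told apart. The other excitatory neurons changed in the same direction, by -0.66 ± 0.15 (adjusted p = 0.0255). Nav3, Rasgrf1 and Calm2, which encode a neuron navigator protein, a Ras exchange factor and a calmodulin, followed with log2 changes of -0.84 ± 0.30, -1.38 ± 0.49 and -1.03 ± 0.38 (adjusted p = 0.383, 0.383 and 0.417) and did not pass. Rasgrf1 passed the filter on low counts only through the CON samples, where it is high, which favoured its small p.

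**Figure D5:**
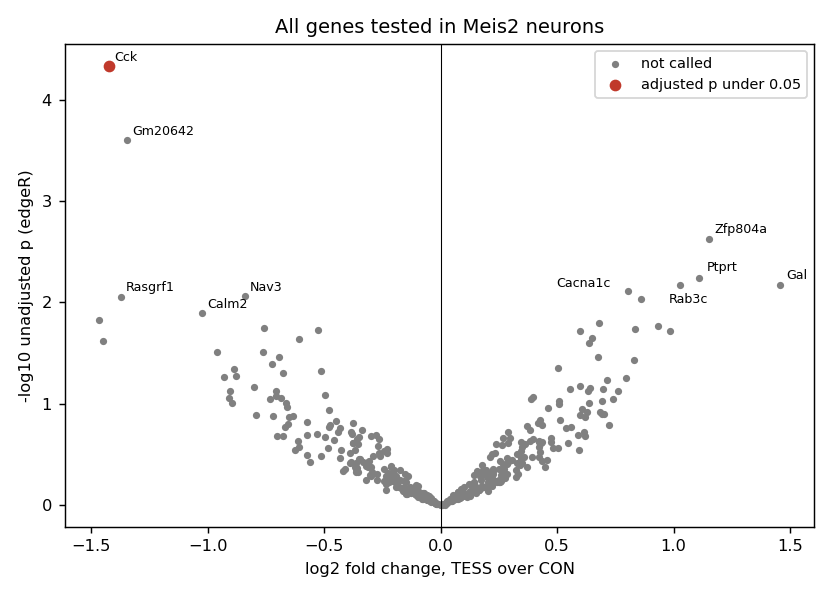
Each point is 1 of the 410 genes tested in Meis2 neurons, with the log2 fold change of TESS over CON across and -log10 of the unadjusted edgeR p upward, and named genes labelled. Cck, in red, is the gene called, and Gm20642 is the next by p.

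The genes that mark the subtype did not pass. Meis2 averaged 927 ± 461 CPM in TESS and 731 ± 284 CPM in CON (SD, n = 3 each), a log2 change of 0.43 ± 0.36 (adjusted p = 0.800) that turned to -0.88 inside batch 3 and -0.17 without TESS 2. Htr2c averaged 1140 ± 65.2 CPM in TESS and 1129 ± 453 CPM in CON, a log2 change of -0.02 ± 0.31 (adjusted p = 0.980). For Pbx3 the change was 0.07 ± 0.33 (adjusted p = 0.957). Sst, another peptide gene that could be tested, was at 0, 504 and 427 CPM in TESS 1, 2 and 3, against 589, 525 and 382 CPM in CON 1, 2 and 3, with a log2 change of -0.61 ± 0.51 (adjusted p = 0.800). The Sst value moved to -0.087 without TESS 1 and to -1.52 without TESS 2. Slc17a6 had too few UMIs to be tested.

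By list, counts of tested members were small. Of the 28 peptide genes 3 were tested (Cck, Gal and Sst), and Cck alone was called. None of 16 channel genes, 13 glutamate receptor genes, 6 GABA and glycine receptor genes and 26 adhesion and guidance genes was called. Their median log2 changes were 0.13, 0.05, -0.22 and 0.09, beside 0.00 over all 410 genes. Of these, 2 channel genes (Cacna1c and Kcnq5) and 1 adhesion gene (Robo2) had an unadjusted p under 0.05, as did 32 of all 410 genes (7.8%).

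Immediate early genes, which neurons switch on within minutes of activity, were almost undetected. Of 32 in the table, 15 had a UMI in Meis2 neurons, with 15 UMIs in all in TESS and 30 in CON. None could be tested. Fos had 2 UMIs (1 in TESS 1 and 1 in CON 3) and Junb 4 (2 in TESS 1, 1 in TESS 2 and 1 in CON 3). Arc had 3 (1 in CON 1 and 2 in CON 2), and Per1, Nr4a1, Npas4 and Fosb 1 each, while Egr1, Btg2 and Nr4a3 had 0. The highest levels of the list were those of Homer1, Jund and Gadd45g, so the sum rests largely on other members than these. The summed level was 363, 367 and 213 CPM in TESS 1, 2 and 3, against 229, 236 and 281 CPM in CON 1, 2 and 3, and the groups overlap. The mean was 314 ± 87.4 CPM in TESS and 249 ± 28.4 CPM in CON (SD, n = 3 each), while in the other excitatory neurons it was 432 CPM in TESS and 225 CPM in CON. In TESS 3 the value of Meis2 neurons rests on 2 UMIs. Nptx2, a delayed activity-response gene, was higher in Meis2 neurons than in the other excitatory neurons (178 CPM, against 37.8 CPM), with 72.6, 229 and 0 CPM in TESS 1, 2 and 3, against 294, 184 and 141 CPM in CON 1, 2 and 3, and the groups overlap.

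No gene changed differently in Meis2 neurons than in the other excitatory neurons by the interaction test (0 of 410 called, 0%, edgeR with the sample as a block). At an unadjusted p under 0.05 there were 21, and the smallest adjusted p was 0.248. The genes with the smallest p were Zfp804a, with a difference of log2 changes of 1.19 ± 0.35, Ptprt with 1.17 ± 0.36, and, among negative differences, Gpc5, a glypican, with -1.24 ± 0.39 and Rasgrf1 with -1.43 ± 0.45 (adjusted p = 0.248 for all 4). Without TESS 2 the difference was 0.70 for Zfp804a and -2.09 for Gpc5. Zfp804a was at 798, 1283 and 640 CPM in Meis2 neurons of TESS 1, 2 and 3, against 458, 447 and 362 CPM in those of CON 1, 2 and 3. In the other excitatory neurons it stayed between 464 and 490 CPM in TESS and between 437 and 497 CPM in CON. Gm28928, Kcnq5 and Robo2 had positive differences of 0.82, 0.95 and 0.89, and Etl4, Grip1 and Nav3 negative ones of -1.26, -0.94 and -0.77, none of which passed.

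Markers of other cell types were found in Meis2 neurons at summed levels near those of the other excitatory neurons (747 CPM, against 845 CPM, for oligodendrocyte genes). Of 10 oligodendrocyte genes 8 had a UMI, with a summed level from 363 to 853 CPM in TESS and from 654 to 1005 CPM in CON, and Cnp and Sox10 were at 0. Astrocyte genes (8 of 9 with a UMI, Aldh1l1 at 0) ranged from 145 to 427 CPM in TESS and from 52.5 to 281 CPM in CON. Microglial genes (6 of 8, Cx3cr1 and Inpp5d at 0) ranged from 107 to 145 CPM in TESS and from 121 to 158 CPM in CON. Oligodendrocyte precursor genes (5 of 7, Pdgfra and Cspg4 at 0) ranged from 427 to 943 CPM in TESS and from 583 to 867 CPM in CON, and 105 of their 116 UMIs were of Lhfpl3. Endothelial genes had 6 UMIs in all. Their part in the results on Cck and Gal was not tested.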

How the data were processed

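The authors deposited UMI counts per gene (19954 symbols) and nucleus, and per nucleus the library, batch, cell annotation and a fraction of UMIs, presumed mitochondrial, that no result uses. Per the submitters' processing notes, Cell Ranger 2.2.0, Seurat 3 and the builds mm10 and GRCm38 were used. How nuclei were filtered, whether introns and strand were used and what batch means is not stated in these sources. The members and gene lists were chosen with earlier results of these data known.

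Here counts were summed per sample. CPM are UMIs scaled to 1000000 of the class. Subtypes were called excitatory where Slc17a6 exceeded Slc32a1 (21 of 38), which puts V1/V2b/Slit2 among the 16 inhibitory ones. Ratios of levels use CPM + 10. Gene tests used edgeR 4.0.16 in R 4.3.3 (quasi-likelihood F test, TMM, filterByExpr with a minimum count of 10, threshold 0.05), without a batch term. They were also run on counts simulated with known changes and a single common dispersion. The recovery in that run is not given here, and it does not show the error rate in the real counts. The SE is the log2 change over the square root of F. The p-values measure spread between samples, which may be technical. Shares were compared with exact permutation over 20 splits, and under the replicate block over all sign flips of the differences by sample number.

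Named genes are those called, up to 10 in each direction, or else the 5 of smallest p in a direction, the 20 defining genes, chosen list members (the top 6 by level and the 3 furthest each way at 20 CPM or more) and a fixed set. Slc32a1, Gad1, Gad2 and Slc6a5 mark inhibitory neurons. Neuron counts of any library pair differed by more than sampling noise (chi-square per degree of freedom 1.69 to 6.42). Alternatives were RLE factors, library totals, a minimum count of 5, no filter, each sample left out, batch, replicate block, nuclei without inhibitory UMIs, DESeq2 1.42.0, and, added after the data were seen, nuclei with a Meis2 UMI and V1/V2b/Slit2 among excitatory neurons. Coordinates are from GENCODE vM21 (19153 symbols matched).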

Additional observations from a re-analysis of the deposited data

How the results depend on the processing

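The number of genes called, 1, was 2 with RLE factors and 2 with no filter, 0 to 1 with each sample left out, and 0 with the replicate block, the batch term, inside batch 3, DESeq2 and nuclei with a Meis2 UMI. Cck kept its direction in all 16 alternatives (log2 -1.85 to -1.19) and missed the threshold in 9, among them the replicate block at -1.38 (adjusted p = 0.321), the batch term at -1.19 (0.485) and DESeq2 at -1.46 (0.104). Gm20642 passed with RLE factors (adjusted p = 0.0448) and with no filter (0.0413). The cause was not tested. Sample numbers did not pair samples, since deviations of equal numbers had correlations of -0.07, 0.00 and -0.06 over 8069 genes, and the share difference under the replicate block had an exact permutation p of 0.5.

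Of 24 gene results, 21 kept their direction in every alternative that gave a value. All but Meis2, Htr2c, Pbx3 and Sst were picked for a small p in these same counts. Their direction was therefore likely to hold, and the count is no measure of how stable gene results are in general. Of the genes not picked by p, only Sst kept its direction. Meis2 turned to -0.17 without TESS 2, -0.86 with the batch term and -0.88 inside batch 3. Htr2c turned to 0.018 with library totals only and 0.33 without CON 2. Pbx3 turned to -0.35 with no filter, -0.34 without TESS 1, -0.013 without CON 3 and -0.054 in nuclei with a Meis2 UMI. With samples left out, the ranges were -0.17 to 0.73 for Meis2, -0.32 to 0.33 for Htr2c and -0.34 to 0.34 for Pbx3. For Sst the change inside batch 3 is not given, since TESS 1 had 0 UMIs. The interaction called 0 genes in 10 alternatives. The share difference ranged from -0.98 to -0.30 points with samples left out. The immediate early gene log2 ratio was 0.32, from 0.20 to 0.62 in 8 alternatives. With 5 and 9 Meis2 nuclei in TESS 1 and TESS 3, depth limits every gene result.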
